A study of Xenopus laevis with 3 samples.

Results

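In all, 3 sequences named after *Xenopus* were numbered miR-143, miR-145 or miR-140, and they are described here together with miR-21 in small RNA from *Xenopus laevis* gastrulae. They were chosen by name, as the sequences with an *X. laevis* (xla) or *X. tropicalis* (xtr) prefix that are numbered miR-143, miR-145, miR-21 or miR-140. The rule found 3 members, xtr-miR-143_R-2, xtr-miR-145_R-1 and xtr-miR-140_L+1R+1, among 175 *Xenopus*-named sequences and 1985 sequences in all. No *Xenopus*-named sequence analysed here had the number 21. MiR-21 was read only under other species' names, and 18 sequences of the 4 numbers carried such names. The species in a name is that of the matched database entry, and a name alone does not settle which organism the RNA came from. The marks after a name are the mapping program's notation for bases added (+) or missing (-) at the left (L) or right (R) end.

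The libraries came from dorsal pieces of stage 10.5 embryos, cut after incubation at 14 °C. The uninjected library came from embryos that received nothing. The Lhx1-AS library came from embryos given 400 pg of an antisense oligonucleotide against *lhx1*, a LIM homeodomain transcription factor gene expressed in the organizer, in both dorsal blastomeres at the 4-cell stage. The Fry-MO library came from embryos given 20 ng of a morpholino that blocks translation of *fry*, which encodes the large protein Furry, at the same site and stage. A pool of 30 dorsal pieces, collected over 3 experiments, made up each library. The study asked which miRNAs differ when either gene is depleted. Injected embryos were picked by the fluorescence of a tracer and none were given a control oligonucleotide, so the effects of depletion, of injection and of picking embryos cannot be told apart. With 1 library per condition no spread between replicates and no p-value can be given, and the 95% intervals below cover counting error only. In pooled tissue, fewer cells of a type and less RNA per cell cannot be told apart.

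MiRNAs are cut from hairpin precursors, whose arms each can give a mature strand (5p and 3p), and the seed at bases 2 to 8 guides the choice of mRNA targets. In mammals the *mir-143* and *mir-145* hairpins lie next to each other and are transcribed together. Both are known as miRNAs of smooth muscle and other mesenchymal cells. MiR-140 is known for cartilage, where the gene lies within *Wwp2* in mammals, and miR-21 is a broadly expressed miRNA that is abundant in fibroblasts and many other cells.

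The mature sequences are shown as they were listed for these arms, 20 to 24 bases long, with the seed in capitals. For miR-143, miR-145 and miR-140 the *Xenopus*-named strand comes first, followed by its opposite arm from another species' name.
miR-143-3p: tGAGATGAagcactgtagct
miR-143-5p: gGTGCAGTgctgcatctctggtc
miR-145-5p: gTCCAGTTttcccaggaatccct
miR-145-3p: aTTCCTGGaaatactgttctt
miR-140-5p: cAGTGGTTttaccctatggtagt
miR-140-3p: aCCACAGGgtagaaccacggac
miR-21-5p: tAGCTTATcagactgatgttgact
miR-21-3p: cAACAGCAgtcgatgggctgt
No seed was shared between these strands, and no listed sequence of another number held any of the seeds. MiR-143 and miR-145, which are neighbours in mammals, thus had different seeds. The arms of a number were set against each other in the ungapped alignment with the most A-U, G-C and G-U pairs. There miR-143 paired at 16 of 19 positions, miR-145 at 15 of 19, miR-140 at 18 of 20 and miR-21 at 13 of 21. No unrelated strands were aligned for comparison, so complementarity was not tested. The opposite arms came under the names of anole (miR-143-5p), opossum (miR-145-3p), carp (miR-140-3p) and mouse (both arms of miR-21). The mapping program put both mouse-named miR-21 strands in its mapping group gp3a. It put the strands shown for miR-143, miR-145 and miR-140 in group gp1b, whatever the species in the name. The organism that the miR-21 reads came from was not tested.

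All listed sequences together had 133894 (uninjected), 56026 (Lhx1-AS) and 108041 (Fry-MO) reads, and *Xenopus*-named sequences held 42.0%, 50.1% and 59.4% of them. The authors' normalized counts are raw reads divided by a library size parameter, and 3 reads, used as the limit for a count of 0, are worth 3.26, 3.88 and 3.42 normalized counts in that order. The 3 members together took 53, 107 and 916 reads, or 395.8, 1910 and 8478 ppm of the listed reads (parts per 1e+06). Their share of the listed reads was thus lowest in the uninjected and highest in the Fry-MO library.

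MiR-143 was the most read member in every library. It had 46 reads in the uninjected library, or 49.97 normalized counts (interval 36.6 to 66.7). It had 76 reads with Lhx1-AS, or 98.3 normalized counts (77.4 to 123). With Fry-MO it had 824 reads, or 940 normalized counts (876.5 to 1006). None of these intervals overlapped. Among *Xenopus*-named sequences ordered by reads, miR-143 moved from place 38 in the uninjected library to place 33 in the Lhx1-AS and place 17 in the Fry-MO library.

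MiR-145 had far fewer reads. It had 4 reads in the uninjected library, or 4.34 normalized counts (1.18 to 11.1), 23 with Lhx1-AS, or 29.7 (18.9 to 44.6), and 58 with Fry-MO, or 66.1 (50.2 to 85.5). Its levels took the same order as those of miR-143, again with no overlap between the intervals. It stood at place 89 in the uninjected library and at place 56 in each depleted library.

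MiR-140-5p was the least read member, with 3 reads in the uninjected library, or 3.26 normalized counts (0.672 to 9.52). It had 8 reads with Lhx1-AS, or 10.3 (4.47 to 20.4), and 34 with Fry-MO, or 38.8 (26.9 to 54.2). The intervals of the uninjected and the Lhx1-AS library overlapped, and that of the Fry-MO library lay above both. MiR-140-5p stood at places 100, 83 and 66 in the same order of libraries.

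**Figure D1:**
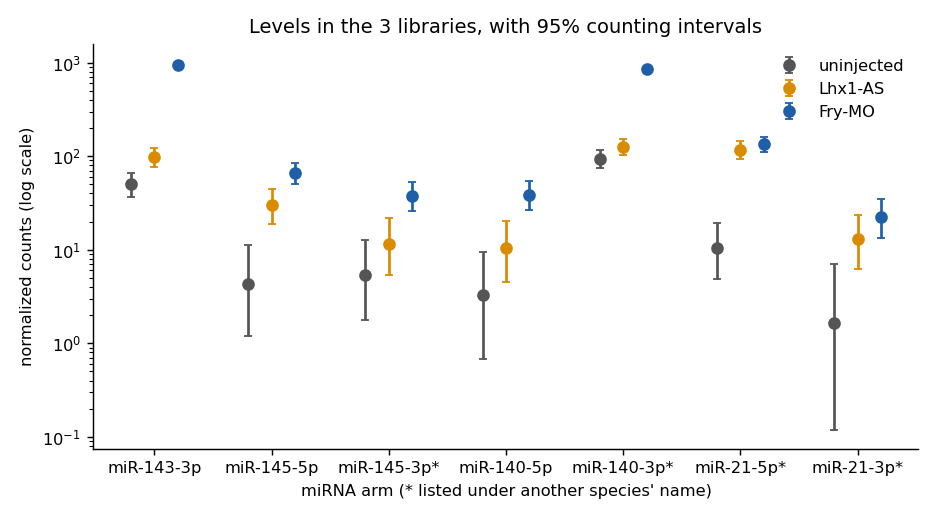
Normalized counts (log scale) of 7 miRNA arms in the uninjected, Lhx1-AS and Fry-MO libraries, 1 point per library with 95% counting intervals, where * marks an arm listed under another species' name. MiR-143-3p and miR-140-3p reached 940 and 863 normalized counts with Fry-MO, while miR-21-5p was about as high with Lhx1-AS (117) as with Fry-MO (134).

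Only sequences with 10 or more raw reads in either library of a pair were compared, and a ratio of 2 or more was called higher. Between Lhx1-AS and uninjected, 1 of 2 members compared was called higher, against 32.9% of the 79 *Xenopus*-named sequences compared. MiR-145 was 6.84-fold higher (interval 2.34 to 27.2), the 6th largest ratio of the 79. MiR-143 was 1.97-fold higher (1.35 to 2.90) and fell just short of the call. Its ratio came to 3.95 when the libraries were scaled to their listed reads, to 2.13 when scaled to mappable reads and to 1.80 with TMM, so the call turned on the scaling. MiR-140-5p had too few reads in this pair to be compared, and its ratio was 3.17 (0.762 to 18.6). The median log2 ratio over all sequences compared was 0.35. MiR-145 entered this comparison only through its Lhx1-AS reads, and with no filter on reads 23.9% of 163 sequences were called higher.

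Between Fry-MO and uninjected, all 3 members were called higher, against 68.8% of the 93 *Xenopus*-named sequences compared. A call of this kind was thus common in the Fry-MO library. MiR-145 and miR-140-5p had under 10 reads in the uninjected library and entered only through their Fry-MO reads, so the filter favoured a call and the count is a description. With no filter on reads, 47.5% of 162 *Xenopus*-named sequences were called higher. MiR-143 was 18.8-fold higher (14.0 to 25.9), the 11th largest ratio. MiR-145 was 15.2-fold higher (5.64 to 57.7), and miR-140-5p 11.9-fold (3.74 to 60.5), at places 18 and 23. The median log2 ratio over all sequences compared was 2.01, and the intervals of the 3 members overlapped one another. The study had picked the *mir-143*/*mir-145* cluster because its members were higher in both depleted libraries of this same set, so the direction of miR-143 and miR-145 is a description and no independent evidence.

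Between Fry-MO and Lhx1-AS, which share no control library in this direct form, all 3 members were again called higher, against 55.2% of the 96 sequences compared. MiR-140-5p entered only through its Fry-MO reads, and with no filter 39.5% of 162 sequences were called. MiR-143 was 9.56-fold higher with Fry-MO (7.55 to 12.3), miR-140-5p 3.75-fold (1.70 to 9.37) and miR-145 2.22-fold (1.35 to 3.78). MiR-143 stood at place 16 of the 96, whereas miR-145 stood at place 51, below the median ratio of 2.60 over all sequences. The call of miR-145 was lost under 3 other scalings, at 1.94 with TMM, 1.93 with the median of ratios and 1.31 (0.794 to 2.22) with listed reads.

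**Figure D2:**
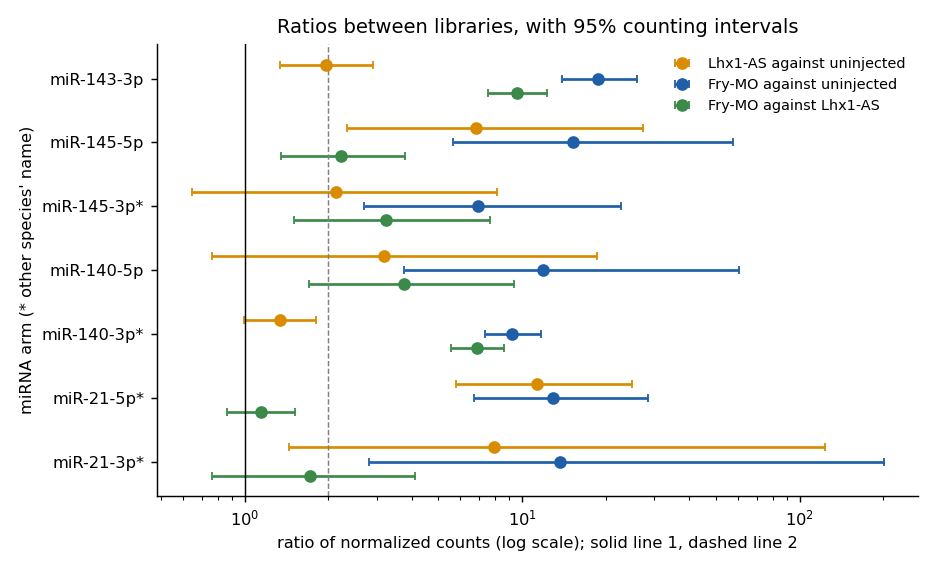
Ratio of normalized counts (log scale) of 7 miRNA arms in 3 comparisons, with 95% counting intervals, a solid line at 1 and a dashed line at 2 (the fold for a call), where * marks another species' name. In Lhx1-AS against uninjected, miR-140-5p (3.17) and miR-145-3p (2.14) are drawn but had too few reads to be compared or called. MiR-143-3p lies at 1.97 with Lhx1-AS and 18.8 with Fry-MO, whereas miR-21-5p lies at 11.3 and 13.0.

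The balance of miR-143 and miR-145 was read within each library, where the scaling between libraries drops out. MiR-145 made up 4 of 50 reads of the pair in the uninjected library, or 8% (exact binomial interval 2.22 to 19.2). It made up 23 of 99, or 23.2% (15.3 to 32.8), with Lhx1-AS, and 58 of 882, or 6.58% (5.03 to 8.42), with Fry-MO. In other words, 1 read of miR-145 stood beside 11.5 reads of miR-143 in the uninjected library, 3.30 with Lhx1-AS and 14.2 with Fry-MO. It was the Lhx1-AS library that held the largest share of miR-145, and the Fry-MO and uninjected libraries were alike within a wide interval.

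As odds ratios of miR-145 to miR-143, Lhx1-AS stood at 3.46 against uninjected (exact conditional interval 1.08 to 14.6). Fry-MO stood at 0.810 against uninjected (0.281 to 3.20) and at 0.233 against Lhx1-AS (0.133 to 0.419). The depleted libraries therefore differed in this balance beyond counting error, and the difference from the uninjected library rested on 4 reads of miR-145. With both arms and a longer miR-143 form added, miR-145 made up 15.5% (7.35 to 27.4), 29.1% (20.8 to 38.5) and 9.80% (7.96 to 11.9) in the order uninjected, Lhx1-AS and Fry-MO. The odds ratio of Lhx1-AS to uninjected then came to 2.22 (0.936 to 5.76), an interval that holds 1. That of Fry-MO to Lhx1-AS came to 0.265 (0.163 to 0.437), close to the value from the main strands alone. This sum was added after the data were seen.

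**Figure D3:**
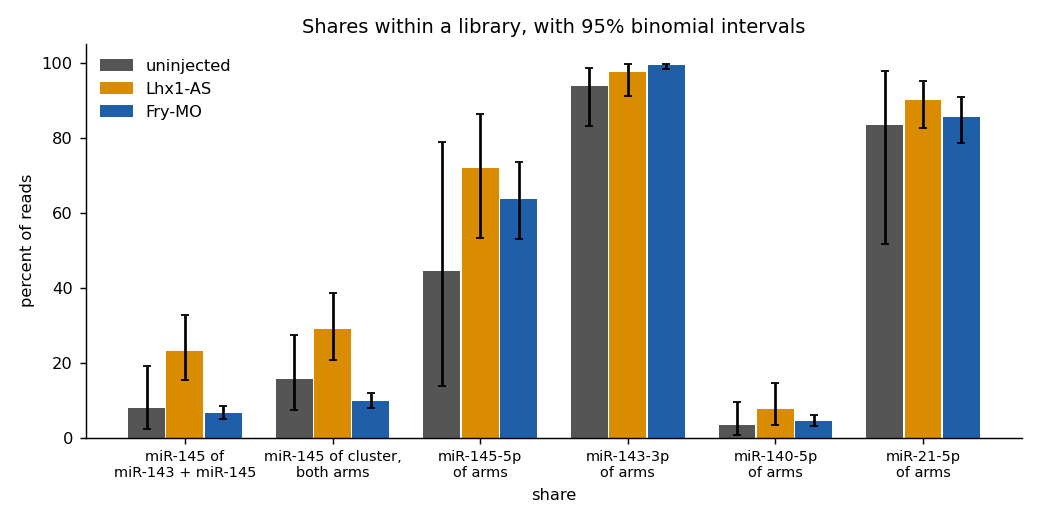
Percent of reads within the uninjected, Lhx1-AS and Fry-MO libraries (bars, with 95% exact binomial intervals) for the share of miR-145 in the *mir-143*/*mir-145* pair and for the share of 1 arm in 4 miRNAs. The share of miR-145 is drawn from the main strands and again with both arms and a longer miR-143 form added, a sum made after the data were seen. From the main strands, the share of miR-145 is 23.2% with Lhx1-AS, against 8% in the uninjected and 6.58% in the Fry-MO library. With both arms it is 29.1%, against 15.5% and 9.80%.

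For none of the 4 miRNAs were both arms listed under a *Xenopus* name, so the opposite arms were taken from other species' names after their values had been seen. MiR-143 was read almost wholly from its 3p arm, at 93.9% of 49 reads in the uninjected library, 97.4% of 78 with Lhx1-AS and 99.3% of 830 with Fry-MO. MiR-143-5p had 3, 2 and 6 reads. The odds ratio of the arms between Fry-MO and uninjected was 8.90 (1.40 to 43.3), and it rested on those 3 and 6 reads.

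MiR-145 was read from both arms. MiR-145-5p made up 4 of 9 reads (44.4%, interval 13.7 to 78.8) in the uninjected library, 71.9% of 32 (53.2 to 86.2) with Lhx1-AS and 63.7% of 91 (53.0 to 73.6) with Fry-MO. These intervals overlapped. MiR-145-3p had 5, 9 and 33 reads in the order uninjected, Lhx1-AS and Fry-MO.

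MiR-140 was read mainly from its 3p arm, which came under a carp name. MiR-140-3p had 86 reads in the uninjected library (93.4 normalized counts, interval 74.7 to 115), 97 with Lhx1-AS (125.4, interval 102 to 153) and 757 with Fry-MO (863, interval 803 to 927). Its levels in the uninjected and Lhx1-AS libraries overlapped and that with Fry-MO lay far above. Its ratio was 1.34 for Lhx1-AS against uninjected (0.994 to 1.82), and it was 9.24-fold higher with Fry-MO than in the uninjected library (7.39 to 11.7), and 6.88-fold higher with Fry-MO than with Lhx1-AS (5.57 to 8.59). Scaled to listed reads, the ratio of Lhx1-AS to uninjected came to 2.70 (1.995 to 3.65), past the call, and it stayed under 2 with the other scalings. The 5p arm made up 3.37% (0.701 to 9.54), 7.62% (3.35 to 14.5) and 4.30% (3.00 to 5.96) of the reads of both arms in the order uninjected, Lhx1-AS and Fry-MO, and the intervals overlapped. The *Xenopus*-named strand thus carried only a small part of the miR-140 reads, and the level of miR-140 rested on the other arm.

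MiR-21-5p was listed under a mouse name. It had 9.5 reads in the uninjected library, since a read that fits several listed sequences is divided among them, or 10.3 normalized counts (4.84 to 19.3). It had 90.5 reads with Lhx1-AS (117 normalized counts, interval 94.2 to 144) and 117.5 with Fry-MO (134, interval 111 to 160). Both depleted libraries lay above the uninjected one, and they overlapped each other. The ratio to uninjected was 11.3 for Lhx1-AS (5.81 to 25.0) and 13.0 for Fry-MO (6.72 to 28.4), and that of Fry-MO to Lhx1-AS was 1.15 (0.863 to 1.52). With under 10 reads in the uninjected library, miR-21-5p entered the comparisons to it only through its reads in the depleted libraries. MiR-21-3p, also under a mouse name, had 1.5, 10 and 19.5 reads. Its ratio of Fry-MO to Lhx1-AS was 1.72 (0.765 to 4.13).

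All 378 sequences with a mouse or rat name and another number were summed for comparison, because miR-21 was read under a mouse name. Their share of listed reads was 0.555% (uninjected), 5.01% with Lhx1-AS and 4.22% with Fry-MO. Their summed ratios were 4.50 (4.14 to 4.88) for Lhx1-AS to uninjected, 6.45 (5.97 to 6.98) for Fry-MO to uninjected and 1.44 (1.37 to 1.51) for Fry-MO to Lhx1-AS. In that last pair the sum was higher with Fry-MO, but only 13 of 48 rodent-named sequences compared (27.1%) were called higher. The median log2 ratio of the 48 was -2.14. Against uninjected, 30 of 43 rodent-named sequences compared (69.8%) were called higher with Lhx1-AS and 15 of 27 (55.6%) with Fry-MO. Their median log2 ratios were 2.65 and 3.03. Over all *Xenopus*-named sequences compared the shares were 32.9% and 68.8%, and 55.2% for Fry-MO against Lhx1-AS. The rodent-named share was thus higher than these for Lhx1-AS against uninjected and lower in both comparisons of Fry-MO. A sequence could enter through its depleted-library reads alone, and rodent-named sequences had only 742.5 uninjected reads, so these counts are a description. In Fry-MO against Lhx1-AS, many of the 48 entered through their Lhx1-AS reads alone, since only 27 passed the filter in Fry-MO against uninjected. The filter thus favoured low ratios there, so the 27.1% and the median of -2.14 do not show that single sequences were lower with Fry-MO. The summed rodent-named reads and miR-21 were both higher in the depleted libraries. The part of the rodent-named reads in the miR-21 result was not tested.

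A second miR-21-5p sequence, under a halibut name, shared the seed and differed from the mouse-named one by A16G and A22G (the mouse-named base first, positions from 1 at the 5′ end).
mouse-named: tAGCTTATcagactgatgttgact
halibut-named: tAGCTTATcagactggtgttggct
The halibut-named sequence had 2.07 reads in the uninjected library, 1.77 with Lhx1-AS and 2.37 with Fry-MO, all under 3 reads, so no ratio is given. Summed over all 10 sequences numbered 21, miR-21 had 21.8, 107.6 and 142.3 reads, with ratios of 5.86 (3.67 to 9.76) for Lhx1-AS and 6.84 (4.34 to 11.3) for Fry-MO against uninjected. The order of the libraries was that of the mouse-named strand, at smaller ratios. The sum held a 17-base fragment under a chicken name, whose bases 2 to 8 differed from the miR-21-5p seed. This fragment gave 8 of the 21.8 uninjected reads, 5 of the 107.6 Lhx1-AS reads and 0 of the 142.3 Fry-MO reads. It thus lowered both summed ratios.

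The order of the main strands differed between libraries. In the uninjected library miR-140-3p (93.4 normalized counts) lay above miR-143 (49.97), which lay above miR-21-5p (10.3), and miR-21-5p, miR-145 and miR-140-5p did not differ beyond their intervals. With Lhx1-AS, miR-140-3p (125.4), miR-21-5p (117) and miR-143 (98.3) overlapped. With Fry-MO, miR-143 (940) and miR-140-3p (863) overlapped and lay above miR-21-5p (134), which lay above miR-145 (66.1). MiR-21-5p was thus level with miR-143 in the Lhx1-AS library and below it in the others.

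Ratios of ratios between 2 miRNAs do not depend on the scaling of the libraries. They were computed for 10 pairs in 3 comparisons, and 12 of the 30 intervals lay apart from 1, with no adjustment for their number. In Lhx1-AS against uninjected, the ratio of miR-143 was 0.183 times that of miR-21-5p (0.077 to 0.398), and that of miR-140-3p was 0.125 times that of miR-21-5p (0.054 to 0.26). In Fry-MO against Lhx1-AS, the ratio of miR-143 was 8.34 times that of miR-21-5p (5.73 to 12.2), and that of miR-140-3p was 6 times (4.19 to 8.62). MiR-21-5p thus stood apart from miR-143 and miR-140-3p in both of these comparisons, but not from miR-145 in the first. In Lhx1-AS against uninjected, the ratio of miR-145 was 0.634 times that of miR-21-5p (0.164 to 3.02), an interval that holds 1. It was 5.07 times that of miR-140-3p (1.64 to 20.95). In Fry-MO against Lhx1-AS, the ratio of miR-145 was 1.94 times that of miR-21-5p (1.08 to 3.56). In Fry-MO against uninjected, miR-143 and miR-21-5p stood at 1.52 (0.664 to 3.15), an interval that holds 1. MiR-143 exceeded miR-140-3p there by 2.03 times (1.39 to 3.02).

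**Figure D4:**
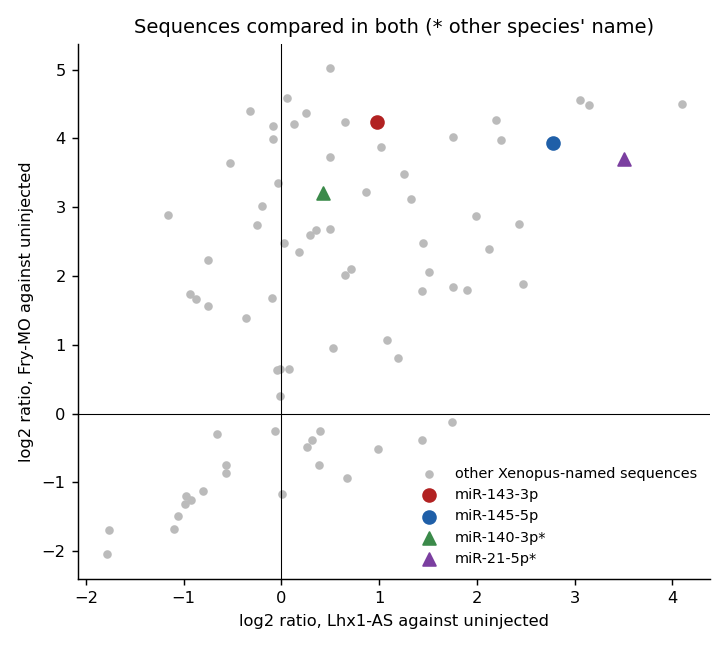
Log2 ratio to uninjected with Lhx1-AS (x axis) and with Fry-MO (y axis) for the 76 *Xenopus*-named sequences compared in both, with miR-143-3p and miR-145-5p marked and miR-140-3p and miR-21-5p added under other species' names (triangles, *). Both axes share the uninjected library. MiR-143-3p lies at ratios of 1.97 and 18.8, miR-145-5p at 6.84 and 15.2, and miR-21-5p at 11.3 and 13.0.

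The *Xenopus*-named sequences nearest to each member were found from the distance between their pairs of log2 ratios to uninjected (a pseudocount of 1 normalized count, at least 50 reads), over 3 libraries. Nearest to miR-143 were miR-30a-5p (distance 0.315, with 81, 107 and 1457 reads in the uninjected, Lhx1-AS and Fry-MO libraries), miR-30e (0.371) and miR-26 (0.672). These 3 stayed nearest with a pseudocount of 10 and with a minimum of 10 reads. Nearest to miR-145 were miR-23a (0.413), miR-27a (0.662) and miR-191 (0.852), and nearest to miR-140-5p were miR-125b (0.158), miR-425-5p (0.275) and miR-199a-3p (0.551). With a pseudocount of 10, 0 of those 3 stayed nearest to miR-145 and 0 to miR-140-5p, which had few reads. A likeness over 3 libraries that share the uninjected one says only that their read numbers changed by like factors.

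Other miRNAs known from mesenchyme, smooth muscle and cartilage were read as a list of 7 numbers (miR-199, miR-214, miR-23b, miR-27b, miR-24, miR-29 and miR-455). They summed to 1011 normalized counts in the uninjected library, 4152 with Lhx1-AS and 9570 with Fry-MO. Of 6 sequences compared, 4 were higher with Lhx1-AS and 6 with Fry-MO against uninjected, with median log2 ratios of 2.28 and 3.85, beside 32.9% and 68.8% called and medians of 0.35 and 2.01 over all *Xenopus*-named sequences compared. All 6 belong to clusters that the study chose on these libraries, so their direction is no independent evidence. The most read, miR-27b, had 189.3, 1322.3 and 4227.3 reads. MiR-455, known from cartilage as is miR-140, had 0 reads in the uninjected and Lhx1-AS libraries and 4 with Fry-MO.

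Lists of other tissues were read beside the members, and their counts stand beside the same 32.9% (Lhx1-AS) and 68.8% (Fry-MO) called higher over all *Xenopus*-named sequences compared. Of the 5 numbers listed for skeletal and heart muscle, only miR-133 had reads, at 1.09, 1.29 and 11.4 normalized counts in the order uninjected, Lhx1-AS and Fry-MO, and miR-1, miR-206, miR-208 and miR-499 had none under a *Xenopus* name in the lines analysed. The list of blood and endothelium summed to 393.2, 444.7 and 5440 normalized counts, with 0 of 5 compared sequences higher with Lhx1-AS and 5 of 5 with Fry-MO. Its most read sequence was miR-142, at 169, 185 and 3133 normalized counts, and miR-486 had no reads under a *Xenopus* name in those lines. The summed level of this list, like miR-143 and miR-140-3p, was far higher with Fry-MO than with Lhx1-AS. This was not particular to blood and endothelium, since the neural and sensory sum rose from 179.9 with Lhx1-AS to 2108 with Fry-MO. In this pair 55.2% of all *Xenopus*-named sequences compared were called higher with Fry-MO.

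The neural and sensory list summed to 134.3, 179.9 and 2108 normalized counts, and its most read was miR-183 (47, 41 and 1077 reads). Against uninjected, 2 of 6 of its sequences were higher with Lhx1-AS and 7 of 8 with Fry-MO. Both called with Lhx1-AS, mir-212-p5 (2 and 26 reads) and miR-138 (0 and 10), passed the filter only through their Lhx1-AS reads. With Fry-MO, miR-96, miR-138, miR-9a-5p and mir-124-p3 entered only through their Fry-MO reads. The filter thus favoured these calls, and the counts are a description. The list of epithelium, gut and liver summed to 57.6, 85.3 and 176.7, and its most read was miR-200a (14, 15 and 85 reads). In this list 1 of 2 was higher with Lhx1-AS and 3 of 5 with Fry-MO, the latter not above the share over all sequences. Of those called with Fry-MO, miR-192 (5 uninjected and 19 Fry-MO reads) and miR-200b (5 and 11) entered only through their Fry-MO reads. The early embryo list went the other way in sum, from 50207.3 to 22602.1 and 17526.9 normalized counts. In each depleted library 3 of 5 sequences were lower, all of them strands or fragments of miR-427, and 1, miR-428, was higher with Lhx1-AS. Over all *Xenopus*-named sequences compared, 5 of 79 were called lower with Lhx1-AS and 9 of 93 with Fry-MO. The most read of the early embryo list was miR-427, a miRNA of the early *Xenopus* embryo known for clearing maternal mRNAs, with 38438, 15455 and 13081 reads. The part of these other lists in the values of miR-143, miR-145, miR-140 and miR-21 was not tested.

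**Figure D5:**
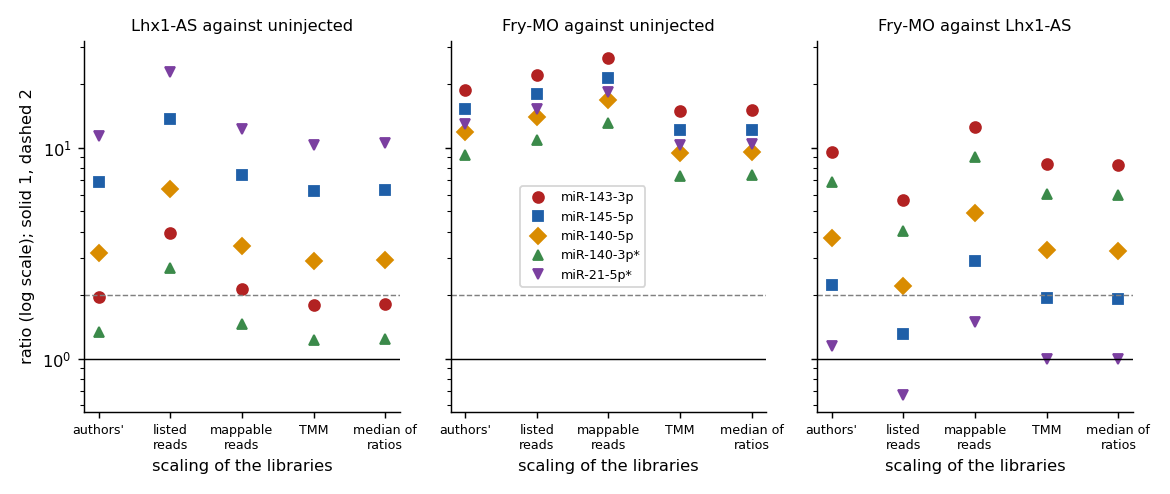
Ratio (log scale) of 5 miRNA arms under 5 scalings of the libraries in 3 comparisons, with a solid line at 1 and a dashed line at 2, where * marks another species' name. All 5 arms stay above 2 in Fry-MO against uninjected, while miR-143-3p and miR-140-3p cross 2 in Lhx1-AS against uninjected and miR-145-5p crosses it in Fry-MO against Lhx1-AS.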

How the data were processed

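Small RNA libraries of 1 pool per condition were sequenced, and the authors mapped the reads with ACGT101-miR to miRBase and to genomes. Neither the miRBase release nor the genome builds were named in the paper, labels or files used here. Raw reads of each sequence were deposited in the form of expected counts, with shared reads divided (fractions occur in 488 sequences), and a normalized signal, for which each library's raw reads were divided by 0.921 (uninjected), 0.773 (Lhx1-AS) or 0.877 (Fry-MO). Of an index to 1987, 2 lines were not analysed here.

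Ratios of normalized counts were given Clopper-Pearson intervals at 95% from raw reads rounded to whole where a share needed it, shares exact binomial and odds ratios exact conditional intervals, all for counting error only. The ratio intervals and the calls were tested on simulated data scaled to listed reads. The share and odds ratio intervals were not tested in this way. No group test was possible. The members and lists were chosen with earlier results of these data known. Named besides the members are their 3 nearest *Xenopus*-named sequences, the most read of each list, and sequences of the same numbers under other names with at least 50 reads. The other opposite arms, further members of the lists, miR-21-3p and the halibut-named miR-21 fall outside this rule, and their values were known when they were added.

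Alternatives were scaling to listed or mappable reads, TMM (edgeR 4.0.16) and median of ratios (DESeq2 1.42.0) as factors on rounded reads with no test, other minimums of reads and folds, intervals that exclude 1, and sums over species. Python 3.11.15, pandas 2.3.3, numpy 2.4.6, scipy 1.17.1, matplotlib 3.10.9 and R 4.3.3 were used.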

Additional observations from a re-analysis of the deposited data

How the results depend on the processing

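The number of members called higher with Lhx1-AS against uninjected was 1 of 2 compared. Beside it stood 32.9% of all *Xenopus*-named sequences compared, and this share is given in brackets for each alternative. It came to 2 of 2 when scaled to listed reads (63.3%) and 2 of 2 when scaled to mappable reads (35.4%). With no filter on reads it was 2 of 3 (23.9%), and at a minimum of 50 reads 0 of 1 (27.9%). At a fold of 1.5 it was 2 of 2 (41.8%), and 2 of 2 where the interval had to lie above 1 (43%). With Fry-MO against Lhx1-AS it went from 3 of 3 (55.2%) to 1 of 3 at a fold of 4 (37.5%). It was 2 of 3 when scaled to listed reads (42.7%), with TMM (52.1%) and with the median of ratios (52.1%). The share of miR-145 with Fry-MO went from 6.58% to 9.80% with all species summed. No ratio of a member turned its direction under the alternatives run. Ratios to uninjected ranged for miR-143 from 1.80 to 3.95 with Lhx1-AS and from 14.98 to 26.6 with Fry-MO, and for miR-145 from 4.23 to 13.7 and from 10.6 to 21.5. MiR-21-5p, in an alternative added after the data were seen, went from 1.15 to 0.673 for Fry-MO against Lhx1-AS when scaled to listed reads. The cause of these shifts was not tested, apart from the change of scale itself, which multiplied every Lhx1-AS to uninjected ratio by 2.01 for listed reads. Scaled to listed reads, 63.3% of the *Xenopus*-named sequences were called higher with Lhx1-AS. Reads limit miR-145 and miR-140-5p most, with 4 and 3 in the uninjected library. No paired analysis was possible because each condition has 1 library.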

Other observations

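A 23-base form of miR-143-3p, listed under a Chinese hamster name, shared all 20 bases of the *Xenopus*-named sequence and carried 3 more at its 3′ end.
20-base form: tGAGATGAagcactgtagct
23-base form: tGAGATGAagcactgtagctcat
The longer form had 0 reads in the uninjected and Lhx1-AS libraries and 8 with Fry-MO, or 0.962% (exact binomial interval 0.416 to 1.89) of the reads of both forms. A count of 0 there allows up to 7.71% in the uninjected and 4.74% in the Lhx1-AS library, so a difference was not detectable at this depth. The 17-base fragment numbered miR-21 under a chicken name had 8 reads in the uninjected library, 5 with Lhx1-AS and 0 with Fry-MO. These were too few to be compared, and its ratio of Lhx1-AS to uninjected was 0.744 (0.192 to 2.58). Bases 2 to 8 of the fragment differed from the seed of miR-21-5p, so its reads say nothing of that strand.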
